A study of Capra hircus with 25 samples.

Results

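The miR-181 family of microRNAs was followed in the liver of young goats (Capra hircus, breed Laiwu black) over the first 12 weeks of life. The members are the entries of the deposited microRNA (miRNA) table whose stem is miR-181a, miR-181b, miR-181c or miR-181d, in any species prefix and either arm. There were 6 of 463 entries. chi-miR-181b-5p, chi-miR-181b-3p, chi-miR-181c-5p, chi-miR-181c-3p and chi-miR-181d carry the goat prefix, and oar-miR-181a carries the sheep prefix. No entry of the table is a goat-named miR-181a, and the names oar-miR-181a and chi-miR-181d do not state an arm. The 25 libraries divide equally among 5 ages, which are the first day of life (1 day) and then week 2, 4, 8 or 12 (n = 5 each), and the labels separate the groups by age alone, with no treatment named. Whether each library is a different kid is not stated in the labels, so the p-values speak for these libraries and their spread may be technical.

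A miRNA is a short RNA that guides the silencing of messenger RNAs, mainly through its seed, the bases near its 5′ end. A precursor hairpin can yield a miRNA from each arm (5p and 3p), and usually 1 arm is much more abundant. The 5p miRNAs of miR-181a, miR-181b, miR-181c and miR-181d share the same seed, so they are expected to bind largely the same messenger RNAs. In human and mouse, miR-181a sets the sensitivity of T cells to antigen and takes part in lymphocyte development. In human liver cancer, miR-181 members are abundant in tumours with stem-cell features. In mouse liver, miR-181b represses Timp3, an inhibitor of matrix proteases. In the RefSeq gene table of goat assembly ARS1.2, the genes of miR-181d and miR-181c are direct neighbours, between NANOS3 and ZSWIM4. The listed gene of miR-181b lies elsewhere, within NR6A1, which encodes an orphan nuclear receptor. That gene table lists 3 genes of the family and none of miR-181a, so the place of miR-181a relative to miR-181b is not given.

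Values are normalised read counts in RPM, the reads of a miRNA scaled to a common library total. A single read was worth 0.0838 to 0.142 RPM, which corresponds to a library total of 7062000 to 11928500 reads. Scaling to a library total matters here, because 222 of 405 tested miRNAs were lower at 12 weeks than at 1 day and the median log2 change over all 405 was −0.54. Median-ratio scaling, which sets the typical miRNA to no change, moved that median to −0.01, and results are given under both scalings where they differ. On a principal component analysis, 4-week replicates 1 and 2 lay apart from the other 3 libraries of their age (first component 3.04 and 5.12 against −4.88 to −2.39), near the 8-week libraries (3.72 to 7.43). The liver label was matched by the hepatocyte miRNAs (miR-122, miR-192, miR-194 and miR-148a), whose 7 entries summed to between 204300 and 302400 RPM in every library. In these bulk samples, fewer cells of a type and less of a miRNA per cell cannot be told apart.

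The family was led by miR-181a at every age. oar-miR-181a had a mean of 2596 ± 525 RPM (SD, n = 25), rank 48 of 463 entries by mean level. chi-miR-181b-5p followed with 254.4 ± 64.6 RPM (rank 118), then chi-miR-181c-5p with 25.4 ± 9.12 RPM (rank 224) and chi-miR-181d with 7.86 ± 3.04 RPM (rank 284). The 3p arms were rare, at 1.42 ± 0.84 RPM for chi-miR-181c-3p and 0.57 ± 0.42 RPM for chi-miR-181b-3p. This order of the 6 mean levels held at each age. oar-miR-181a made up between 87.0% and 92.3% of the summed family in every library, so the summed level follows that entry. The sum was 3466 ± 498 RPM at 1 day, 3244 ± 567 at 2 weeks, 2563 ± 427 at 4 weeks, 2832 ± 349 at 8 weeks and 2324 ± 247 RPM at 12 weeks (n = 5 each). The sources used here do not say how reads that match several of these similar miRNAs were assigned, so the division of reads among the entries is uncertain.

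**Figure D1:**
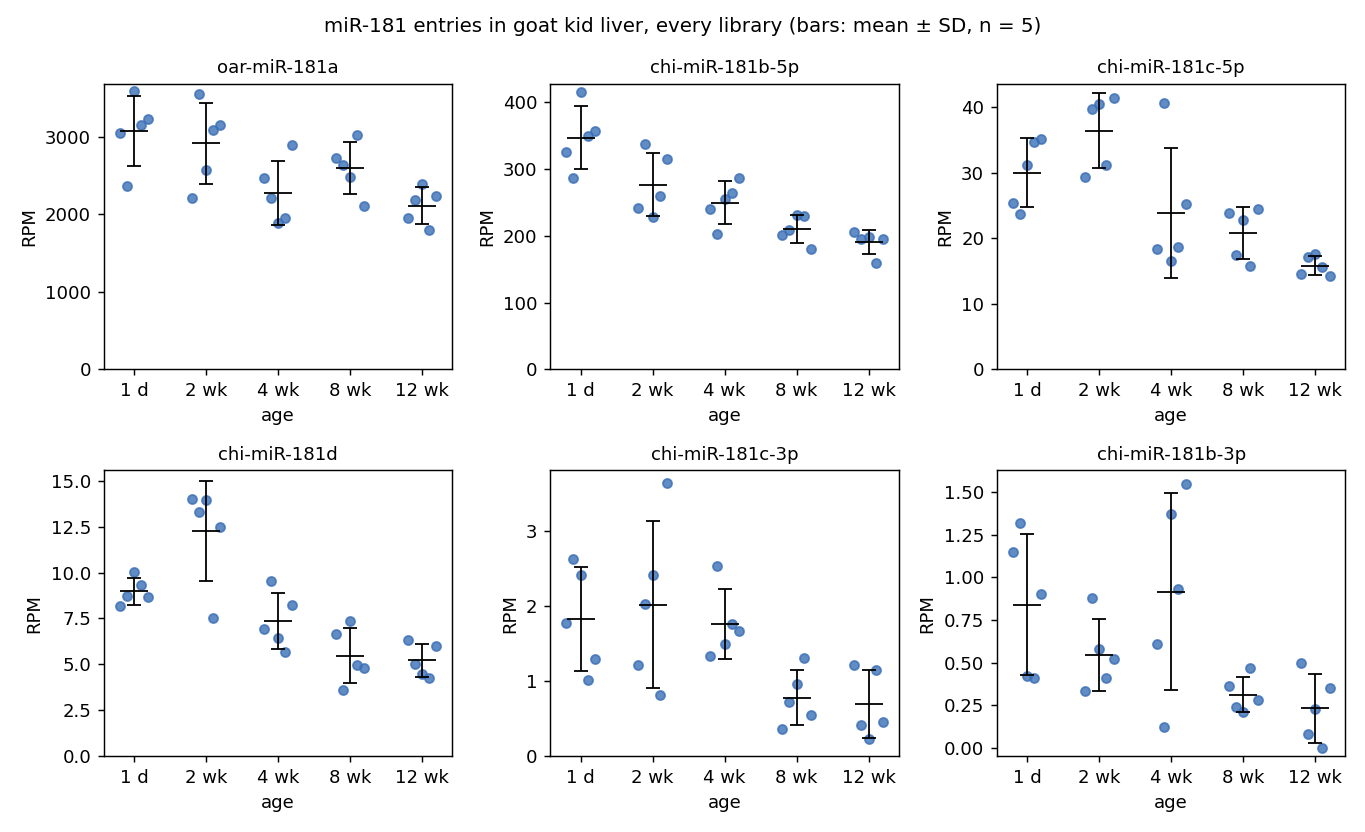
RPM of the 6 miR-181 entries (one panel each, linear axes of different range) in every library at 5 ages; points are libraries in replicate order and bars are the mean ± SD (n = 5). chi-miR-181b-5p was lower at each later age, from 346.3 to 190.2 RPM, while chi-miR-181c-5p and chi-miR-181d had their highest means at 2 weeks.

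chi-miR-181b-5p was lower than at 1 day from 4 weeks on. The 1-day libraries had 324.9, 286.6, 414.5, 348.9 and 356.7 RPM (mean 346.3 ± 46.9), and the 2-week libraries 241.8, 336.9, 228.1, 259.0 and 314.0 RPM (275.9 ± 47.2). At 4 weeks the values were 239.7, 202.1, 254.5, 264.2 and 286.9 RPM (249.5 ± 31.6). These 3 neighbouring ages overlapped. The 8-week libraries had 200.6, 207.9, 231.5, 229.3 and 180.2 RPM (209.9 ± 21.3), and the 12-week libraries 205.4, 194.5, 197.5, 158.6 and 194.9 RPM (190.2 ± 18.2). In the deposited scaling, all 10 libraries of the last 2 ages lay below all 5 of the first day. The decrease was 1.81-fold at 12 weeks against 1 day (log2 change −0.86 ± 0.13, SE; adjusted p = 3.36e-06, limma with Benjamini-Hochberg adjustment over 405 miRNAs). It was 1.64-fold at 8 weeks (adjusted p = 7.66e-05) and 1.39-fold at 4 weeks (adjusted p = 0.00745). At 2 weeks the log2 change of −0.33 ± 0.13 did not pass the threshold of 0.05 (adjusted p = 0.111), nor did any step between neighbouring ages.

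The decrease of miR-181b-5p was smaller once the general shift was removed. After median-ratio scaling, the level was 278.2 ± 33.5 at 1 day and 229.7 ± 24.1 at 12 weeks, a 1.21-fold decrease (log2 change −0.27 ± 0.12, adjusted p = 0.0476). The 1-day libraries (228.9 to 306.7) then overlapped with those of 8 weeks (189.2 to 258.8) and 12 weeks (192.3 to 259.7). The 8-week decrease was then −0.30 on the log2 scale (adjusted p = 0.0385), and the 4-week change of −0.21 was not called (adjusted p = 0.192). The test for any difference among the 5 ages (F test, limma) did not call chi-miR-181b-5p in this scaling (adjusted p = 0.147). Without 4-week replicates 1 and 2, an alternative chosen after the data were seen, the 4-week call also ended in the deposited scaling (log2 change −0.36, adjusted p = 0.0724).

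miR-181a, the most abundant member, had the smallest change of the 5 tested members at 12 weeks against 1 day. oar-miR-181a had 3049.8, 2362, 3594, 3150.1 and 3232 RPM at 1 day (mean 3078 ± 450) and 1953, 2181, 2389, 1798 and 2239 RPM at 12 weeks (2112 ± 235). Both ages overlapped, in 1-day replicate 2 and 12-week replicate 3. The means in between were 2916 ± 523 at 2 weeks, 2279 ± 413 at 4 weeks and 2595 ± 337 RPM at 8 weeks, so the order of ages was not steady. At 12 weeks against 1 day oar-miR-181a was called lower in the deposited scaling (1.45-fold, log2 change −0.54 ± 0.14, adjusted p = 0.00144, limma). That change is close to the median of all tested miRNAs (−0.54), and 204 of 405 miRNAs had a change as low or lower. After median-ratio scaling the log2 change turned to 0.05 ± 0.16 (95% interval −0.28 to 0.38, adjusted p = 0.806). At 4 weeks it was called lower (log2 change −0.44 ± 0.14, adjusted p = 0.0169), and also without 4-week replicates 1 and 2 (−0.47, adjusted p = 0.0443), but not after median-ratio scaling (−0.17, adjusted p = 0.435) nor without 1-day replicate 3 (adjusted p = 0.0552). At 8 weeks it had −0.24 ± 0.14 (adjusted p = 0.131), which turned to 0.18 after median-ratio scaling and was called without 1-day replicate 2 (−0.33, adjusted p = 0.0453). At 2 weeks it had −0.08 ± 0.14 (adjusted p = 0.713), which turned to 0.13.

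miR-181c-5p and miR-181d, products of the neighbouring genes, had their highest means at 2 weeks and were lower at 8 and 12 weeks. chi-miR-181c-5p had 25.4, 23.7, 31.1, 34.7 and 35.1 RPM at 1 day (mean 30.0 ± 5.28) and 29.3, 39.8, 40.5, 31.1 and 41.4 RPM at 2 weeks (36.4 ± 5.73). At 12 weeks its libraries had 14.5, 17.2, 17.6, 15.7 and 14.3 RPM (15.8 ± 1.51). The 12-week libraries lay below every library of the first 2 ages, whereas those 2 ages overlapped. chi-miR-181d had 8.17, 8.71, 10.1, 9.32 and 8.65 RPM at 1 day (8.98 ± 0.72), then 14.0, 13.3, 14.0, 7.51 and 12.5 RPM at 2 weeks (12.3 ± 2.73). Of its 2-week libraries 4 lay above all of the first day, and replicate 4 lay below them. At 12 weeks chi-miR-181d had 6.34, 5.03, 4.50, 4.28 and 5.99 RPM (5.23 ± 0.91), again below every library of the first 2 ages. After median-ratio scaling, chi-miR-181d at 12 weeks (5.19 to 7.98) overlapped with 1 day (6.52 to 8.15) and with 2 weeks (7.05 to 13.9). In that scaling chi-miR-181c-5p at 12 weeks (16.3 to 20.7) overlapped with 1 day (18.9 to 30.4) but lay below 2 weeks (26.6 to 40.3).

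The higher means at 2 weeks did not pass the test for either (limma). The log2 change against 1 day was 0.27 ± 0.20 for chi-miR-181c-5p (adjusted p = 0.356) and 0.38 ± 0.18 for chi-miR-181d (adjusted p = 0.184). After median-ratio scaling these were 0.48 ± 0.23 and 0.57 ± 0.20 (adjusted p = 0.217 and 0.0909). The fall from 2 to 12 weeks did pass, at 2.21-fold for chi-miR-181c-5p (log2 change −1.14 ± 0.20, adjusted p = 4.03e-05) and 2.10-fold for chi-miR-181d (−1.07 ± 0.18, adjusted p = 3.83e-05). Comparisons with 2 weeks, other than that of 4 weeks, were chosen after the values were seen. The fall was also called after median-ratio scaling, at 1.73-fold (adjusted p = 0.00499) and 1.68-fold (adjusted p = 0.00311). By size, 45 of 405 miRNAs had a change as low as that of chi-miR-181c-5p or lower, and 58 as low as that of chi-miR-181d. At 8 weeks against 2 weeks both were also lower, by 1.72-fold (adjusted p = 0.00497) and 2.05-fold (adjusted p = 0.000262), and again after median-ratio scaling (adjusted p = 0.0499 and 0.00282).

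At 12 weeks against 1 day, chi-miR-181c-5p was 1.83-fold lower (log2 change −0.87 ± 0.20, adjusted p = 0.000394, limma) and chi-miR-181d 1.61-fold lower (−0.69 ± 0.18, adjusted p = 0.00176). For chi-miR-181d the size was −0.32 with a pseudocount of 10 RPM (adjusted p = 0.00165). Neither was called after median-ratio scaling (log2 changes −0.31 and −0.18, adjusted p = 0.237 and 0.462). Against 1 day at 8 weeks, chi-miR-181d was lower by 1.57-fold (adjusted p = 0.00366) and chi-miR-181c-5p by 1.42-fold (adjusted p = 0.029). The latter was lost without 1-day replicate 3, 4 or 5, or without 8-week replicate 2 or 4 (highest adjusted p = 0.0812). Median-ratio scaling ended both 8-week calls (adjusted p = 0.251 for chi-miR-181d and 0.726 for chi-miR-181c-5p).

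The 4-week libraries of miR-181c-5p were split. They had 18.3, 40.7, 16.6, 18.6 and 25.2 RPM (mean 23.9 ± 9.94), with replicate 2 as high as the 2-week libraries. In chi-miR-181d the same library was also the highest of its age, at 9.56 RPM against 5.69 to 8.24 RPM. Against 2 weeks, the 4-week change of chi-miR-181c-5p was −0.65 ± 0.20 on the log2 scale and not called (adjusted p = 0.0724, limma), and −0.86 without replicate 2 (adjusted p = 0.00449). chi-miR-181d was called lower at 4 weeks against 2 weeks (1.57-fold, adjusted p = 0.0481), a call that 8 of 10 fits without 1 library lost, all except those without 2-week replicate 4 or 4-week replicate 2. Median-ratio scaling ended it too (adjusted p = 0.101). Without 4-week replicates 1 and 2 together, chi-miR-181d (−0.75, adjusted p = 0.034) and chi-miR-181c-5p (−0.83, adjusted p = 0.0114) were both called lower than at 2 weeks. At 4 weeks against 1 day neither was called (log2 changes −0.38 and −0.27, adjusted p = 0.125 and 0.239), though chi-miR-181c-5p was without 4-week replicate 2 (−0.58, adjusted p = 0.0136). At 8 weeks the levels were 23.8, 17.5, 22.8, 15.7 and 24.4 RPM for chi-miR-181c-5p and 6.64, 3.62, 7.35, 4.95 and 4.80 RPM for chi-miR-181d.

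Of the rare 3p arms, chi-miR-181c-3p was lower at 8 and 12 weeks than at 1 day in the deposited scaling. It passed the filter of 1 RPM in at least 5 libraries mainly through the ages up to 4 weeks, where it was high. Later, only replicate 4 at 8 weeks (1.31 RPM) and replicates 1 and 4 at 12 weeks (1.21 and 1.15 RPM) reached 1 RPM. With no filter it was also called lower at 12 and 8 weeks (adjusted p = 0.00648 and 0.0177, limma). chi-miR-181c-3p had 1.78, 2.63, 2.41, 1.02 and 1.29 RPM at 1 day and 1.21, 0.42, 0.23, 1.15 and 0.46 RPM at 12 weeks, with overlap. These rest on 80 reads over the 5 libraries of 1 day and 34 over those of 12 weeks, so counting error adds to the spread between libraries. It was called lower at 12 weeks against 1 day (log2 change −0.74 ± 0.24, adjusted p = 0.0072, limma), at 8 weeks (−0.66 ± 0.24, adjusted p = 0.0191) and at 12 weeks against 2 weeks (−0.80 ± 0.24, adjusted p = 0.00653). At 4 weeks its mean of 1.76 ± 0.47 RPM was close to that of 1 day (1.83 ± 0.69). The size of these changes depends on the pseudocount: at 12 weeks against 1 day it was −1.40 with 0.1 RPM and −0.14 with 10 RPM, both called (adjusted p = 0.00472 and 0.0175). Of the calls with a pseudocount of 1, the first 2 ended after median-ratio scaling (adjusted p = 0.105 and 0.146) and the third did not (adjusted p = 0.0288). The 8-week call was also lost without 1-day replicate 2 or 3 or 8-week replicate 1 (highest adjusted p = 0.0594). At 8 weeks against 2 weeks chi-miR-181c-3p had −0.71 ± 0.24 (adjusted p = 0.0231), lost after median-ratio scaling (adjusted p = 0.0548) and without 2-week replicate 3 or 5 or 8-week replicate 1 or 5. chi-miR-181b-3p failed the filter of 1 RPM in at least 5 libraries and was left out of the main fit. With no filter it was called lower than at 1 day at 12 weeks (log2 change −0.56 ± 0.18, adjusted p = 0.00928, limma) and at 8 weeks (−0.46 ± 0.18, adjusted p = 0.0356), beside 48.8% and 43.4% of 463 miRNAs, but its highest mean was that of 4 weeks (0.92 ± 0.58 RPM against 0.84 ± 0.42 at 1 day). It rested on 38 reads over the 5 libraries of 1 day, 26 at 2 weeks, 41 at 4 weeks, 15 at 8 weeks and 11 at 12 weeks. In 12-week replicate 4 it was listed at 0, and 3 reads in that library would be 0.313 RPM.

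**Figure D2:**
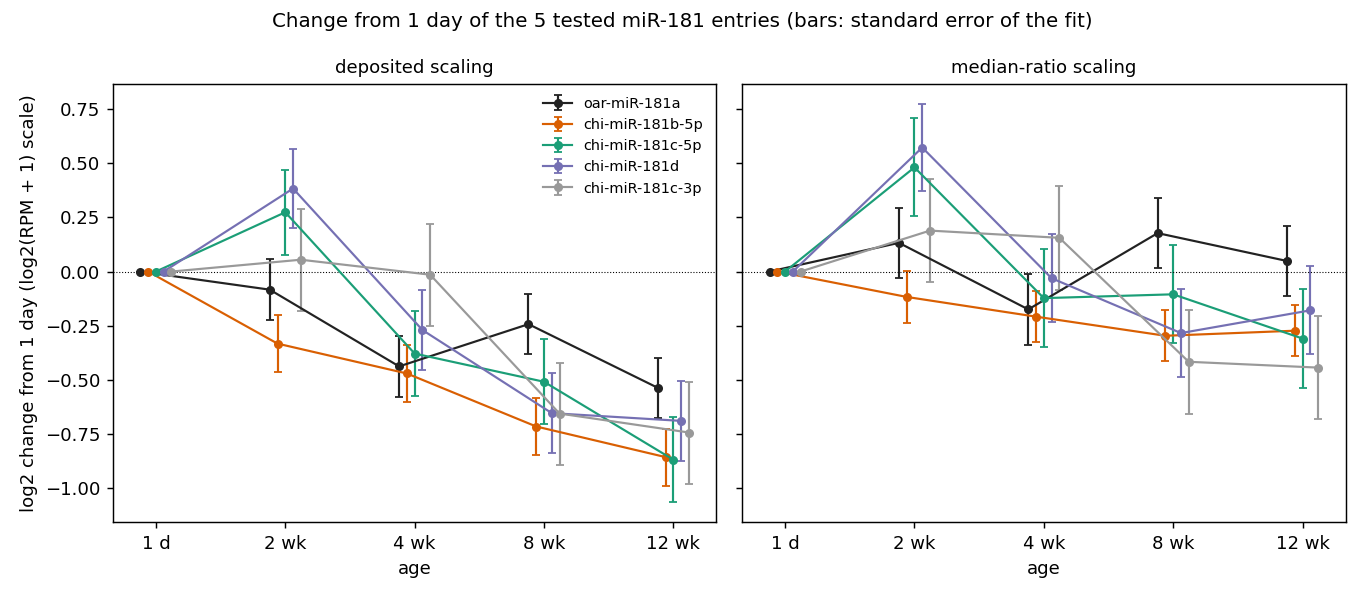
Log2 change from 1 day of the 5 tested miR-181 entries at each age, with the deposited library-total scaling (left) and after median-ratio scaling (right); bars are the standard error of the fit. In the deposited scaling all 5 lay between −0.87 and −0.54 at 12 weeks, and after median-ratio scaling between −0.44 and 0.05.

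Counted over the family, all 5 tested members differed among the 5 ages (F test, limma), where 64.7% of all tested miRNAs did. After median-ratio scaling 3 members did (chi-miR-181d with adjusted p = 0.00619, chi-miR-181c-5p with 0.0391 and chi-miR-181c-3p with 0.0443), against 60.7% of all miRNAs. At 12 weeks against 1 day 5 of 5 were lower, beside 54.8% of all miRNAs (11.6% were higher). In the deposited scaling 3 had no overlap between libraries, beside 44.7%. The median change of the members was −0.74 and that of all miRNAs −0.54 on the log2 scale. With median-ratio scaling 1 member, chi-miR-181b-5p, was lower, beside 32.8% of all miRNAs (28.9% were higher), with medians of −0.27 and −0.01. So many miRNAs were lower at 12 weeks that these counts mark nothing particular to the family.

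At 8 weeks against 1 day 4 of 5 members were lower (49.1% of all miRNAs), and in the deposited scaling 2 did not overlap (34.1%). After median-ratio scaling 1 was lower at 8 weeks (26.2%). In the deposited scaling at 4 weeks it was 2 of 5 (28.4%). At 2 weeks against 1 day none was called by limma (4.69% of all lower and 0.988% higher), with 2 members at an unadjusted p under 0.05. At 4 weeks against 2 weeks 1 of 5 was lower (1.73% of all). At 8 weeks against 4 weeks none was called by limma (6.91% of all called), and at 12 weeks against 8 weeks none (1.23% of all called). In these 2 comparisons 2 members and 1 member had an unadjusted p under 0.05. The share of all miRNAs at that unadjusted limit is not given, here or for 2 weeks against 1 day. Against 2 weeks in the deposited scaling, 5 of 5 were lower at 12 weeks (39.5% of all miRNAs), 3 of them with no overlap (28.9%). At 8 weeks 4 of 5 were lower (23.2%), 2 with no overlap (15.6%). Of these, chi-miR-181b-5p at 8 weeks (−0.38 ± 0.13, adjusted p = 0.0279) was lost without 2-week replicate 2 or 5 or 8-week replicate 1 or 5 (highest adjusted p = 0.0947) and after median-ratio scaling, which left 2 members called at 8 weeks (15.6% of all). After median-ratio scaling chi-miR-181c-5p, chi-miR-181c-3p and chi-miR-181d were still lower at 12 weeks against 2 weeks, beside 25.9% of all miRNAs, and oar-miR-181a (log2 change −0.08) and chi-miR-181b-5p (−0.16) were not called. The comparisons with 1 day share its 5 libraries, and those with 2 weeks share theirs.

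**Figure D3:**
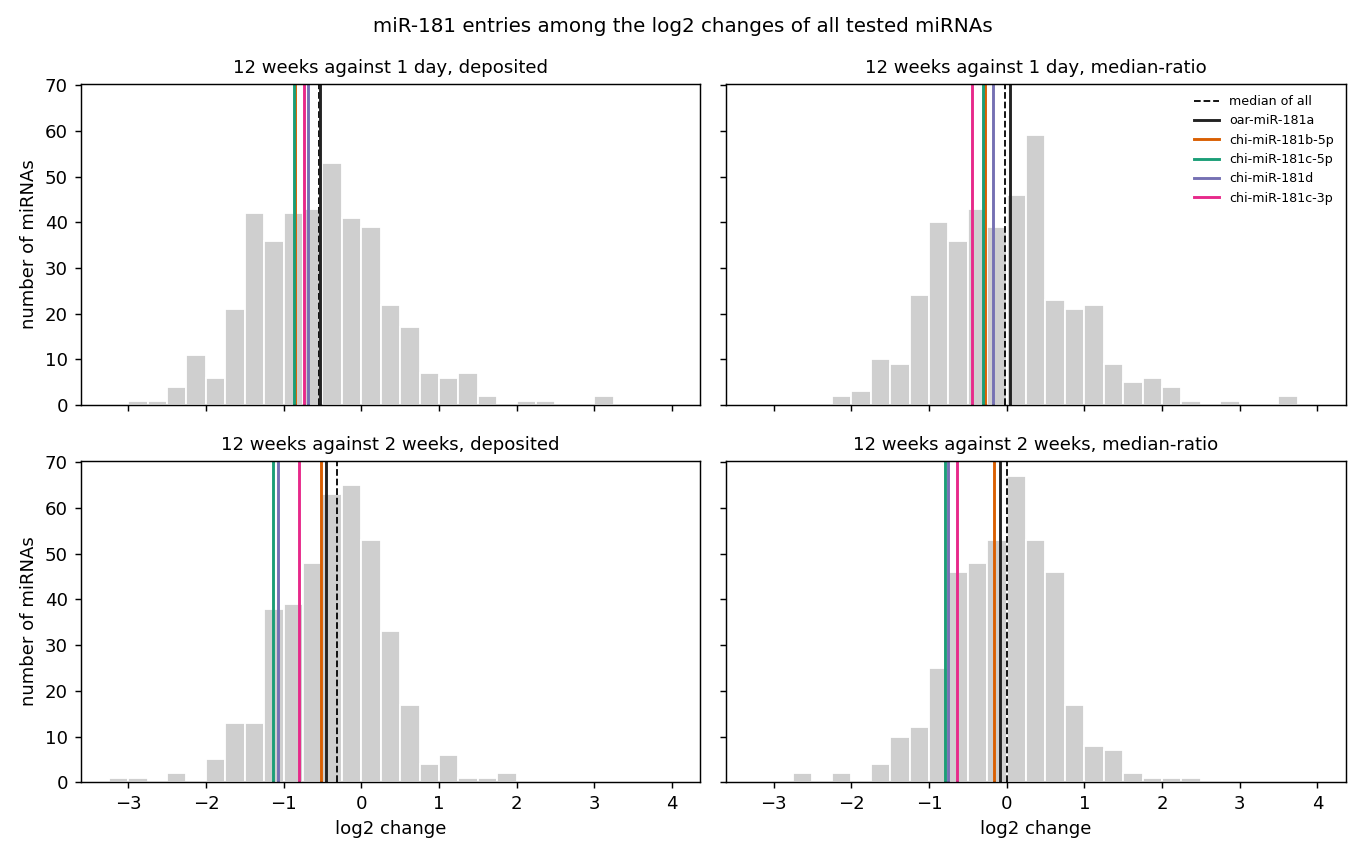
Number of miRNAs (of 405) by log2 change at 12 weeks against 1 day (top) and against 2 weeks (bottom), with the deposited scaling (left) and after median-ratio scaling (right); coloured lines mark the 5 tested miR-181 entries and the dashed line the median of all. Against 1 day the entries lay near the middle of the distribution, and against 2 weeks chi-miR-181c-5p and chi-miR-181d lay toward its lower end, at −1.14 and −1.07 in the deposited scaling.

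Ratios between members of the same library do not depend on how that library was scaled. The ratio of oar-miR-181a to chi-miR-181b-5p was 8.88 ± 0.44 at 1 day, with libraries from 8.24 to 9.39, and 11.1 ± 0.97 at 12 weeks, with libraries from 9.51 to 12.1. All 5 libraries of 12 weeks lay above all 5 of 1 day. The ratio was 1.25-fold higher (difference in mean log2 ratio 0.32; p = 0.00794 in 1 exact permutation test, two-sided, which is the lowest value groups of 5 allow). It was 10.6 ± 1.08 at 2 weeks, 9.21 ± 1.70 at 4 weeks and 12.4 ± 1.16 at 8 weeks, so it did not climb steadily. At 4 weeks replicates 3 and 4 had the lowest values of all 25 libraries, 7.41 and 7.36, beside 10.3, 10.9 and 10.1 in replicates 1, 2 and 5.

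Relative to miR-181b-5p, the level of miR-181c-5p was highest at 2 weeks. The ratio of chi-miR-181c-5p to chi-miR-181b-5p ranged from 0.0752 to 0.0995 at 1 day, from 0.118 to 0.178 at 2 weeks and from 0.0705 to 0.0988 at 12 weeks. The 2-week libraries did not overlap with those of 1 day or 12 weeks. This ratio was looked at after the values were seen and was not tested. At 4 weeks it was 0.201 in replicate 2 and 0.0652 to 0.0879 in the other 4 libraries, and at 8 weeks it spread from 0.0685 to 0.135. The ratio of chi-miR-181c-5p to oar-miR-181a, not tested either, ranged from 0.00831 to 0.011 at 1 day and from 0.0101 to 0.0157 at 2 weeks. Those 2 ages overlapped, while the 12-week libraries (0.00638 to 0.00871) lay below all of 2 weeks. The ratio of chi-miR-181d to chi-miR-181b-5p went from a mean of 0.0261 ± 0.0026 at 1 day to 0.0455 ± 0.0137 at 2 weeks and 0.0274 ± 0.0034 at 12 weeks, with 1 of the 2-week libraries (0.0290) inside the 1-day range. In contrast, the ratio of chi-miR-181c-5p to chi-miR-181d had overlapping libraries at all ages, with means of 3.34 ± 0.54, 3.09 ± 0.75, 3.16 ± 0.68, 3.95 ± 0.94 and 3.13 ± 0.75 from 1 day to 12 weeks.

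**Figure D4:**
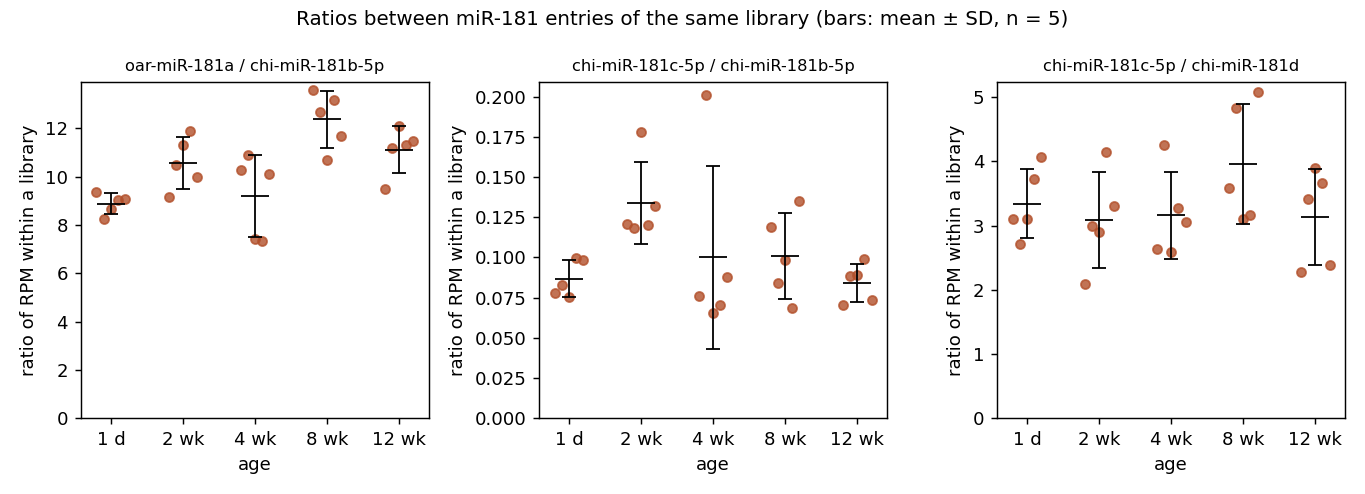
Ratio of the RPM of 2 miR-181 entries within each library, by age; points are libraries in replicate order and bars the mean ± SD (n = 5). The ratio of miR-181a to miR-181b-5p was 8.88 at 1 day and 11.1 at 12 weeks, that of miR-181c-5p to miR-181b-5p was highest at 2 weeks, and that of miR-181c-5p to miR-181d had overlapping libraries at all ages.

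Across all 25 libraries, miR-181c-5p and miR-181d, from neighbouring genes, varied most alike among the 4 main entries. As a description, Pearson's r of log2(RPM + 1) between chi-miR-181c-5p and chi-miR-181d was 0.821 (Spearman's rho 0.816), and 0.765 after median-ratio scaling. The other 5 pairs among the 4 main entries had r from 0.462 to 0.743, and from 0.249 to 0.535 after median-ratio scaling. All share libraries, depth and age, so these are not tests of independence. Outside the family, the 3 miRNAs most like chi-miR-181b-5p, among 272 with a mean of at least 10 RPM, were chi-miR-99b-5p (r = 0.897), chi-miR-500-5p (0.884) and chi-miR-532-5p (0.877). chi-miR-99b-5p went from 616.9 ± 124 RPM at 1 day to 396.1 ± 49.9 at 12 weeks, and chi-miR-500-5p from 63.2 ± 3.12 to 26.2 ± 4.25 RPM. After median-ratio scaling the 3 correlations were 0.639, 0.611 and 0.567.

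The ratio of the arms of miR-181c was not called different. Among 141 miRNAs with both arms tested, 22.7% changed their 5p to 3p ratio at 12 weeks against 1 day. For chi-miR-181c the log2 ratio changed by −0.13 ± 0.27 (95% interval −0.68 to 0.43, adjusted p = 0.793, limma). The pseudocount of 1 RPM is close to the level of the 3p arm, and with 0.1 RPM the value was 0.49 (adjusted p = 0.441) and with 10 RPM −0.48 (adjusted p = 0.00637), so this ratio cannot be read at this depth.

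Among miRNAs that mark other cell types, those of striated muscle had the largest list median at 12 weeks against 1 day. These counts stand beside 11.6% of all miRNAs higher and 54.8% lower, and 28.9% and 32.8% after median-ratio scaling. In the striated muscle list (miR-1, miR-133a, miR-133b, miR-206 and miR-499), 4 of 6 tested entries were higher and 1 lower (median log2 change 1.80). Its most abundant entry, chi-miR-1, went from 1144 ± 591 RPM at 1 day to 9221 ± 3090 RPM at 12 weeks (log2 change 3.10 ± 0.34, adjusted p = 3.81e-08, limma). The sum of the muscle list was 646.1 to 2186 RPM at 1 day and 6194 to 13590 RPM at 12 weeks, with no overlap. In the erythroid list (miR-144 and miR-451), 1 of 3 tested entries was higher and 1 lower (median −0.50), and after median-ratio scaling 1 was higher and none lower. Its most abundant entry, chi-miR-451-5p of red blood cells, went from 1486 ± 290 to 3258 ± 613 RPM (log2 change 1.13 ± 0.26, adjusted p = 0.00045), and the list's sum from 1382 to 2171 RPM at 1 day to between 2733 and 4371 RPM at 12 weeks. The blood cell list (miR-150, miR-155, miR-146a, miR-146b, miR-223 and miR-342) had 9 tested entries at 12 weeks against 1 day, of which 4 were higher and none lower (median log2 change 0.66, against −0.54 for all miRNAs), and 8 were higher after median-ratio scaling. Its most abundant entry, chi-miR-146a, a brake on inflammatory signalling, had a log2 change of 0.74 ± 0.29 (adjusted p = 0.0246, limma). The summed level of its 10 entries was 1753 to 2767 RPM at 1 day and 3001 to 4560 RPM at 12 weeks, with chi-miR-155-3p at 0 in both ages. The hepatocyte list had 1 of 7 entries higher, and 7 after median-ratio scaling. chi-miR-122 had a log2 change of 0.09 ± 0.12 (adjusted p = 0.512, limma), and 0.67 ± 0.10 after median-ratio scaling (adjusted p = 2.57e-06). Endothelial miR-126 had 2 entries, both called lower, and after median-ratio scaling neither was lower and 1 was higher. In the deposited scaling they summed to 27070 to 32830 RPM at 1 day and 22010 to 28000 RPM at 12 weeks. chi-miR-126-3p had −0.27 ± 0.11 (adjusted p = 0.0236, limma), which turned to 0.31 ± 0.11 after median-ratio scaling (adjusted p = 0.0164). The mesenchymal list (miR-143, miR-145, miR-199a and miR-214) had 1 of 8 entries lower and none higher, and after median-ratio scaling 2 higher and none lower. Its sums in the deposited scaling were 112800 to 139900 RPM at 1 day and 96060 to 130000 RPM at 12 weeks. The part of these cells in the miR-181 values was not tested. In the fibrosis and TGF-beta list (miR-21, miR-29a, miR-29b, miR-29c, miR-199a, miR-214, miR-130a, miR-143 and miR-145), 5 of 17 tested entries were higher and 3 lower (median −0.15), and 7 higher and none lower after median-ratio scaling. Its most abundant entry, chi-miR-143-3p of smooth muscle and other mesenchymal cells, had −0.15 ± 0.19 (adjusted p = 0.49, limma), and 0.44 ± 0.24 after median-ratio scaling (adjusted p = 0.111).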

How the data were processed

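Small RNA reads of goat kid liver were processed by the authors with Bowtie 1.1.1, per the submitters' processing notes. The labels' protocol names a stranded total RNA kit. The sources used here name neither genome build nor miRNA annotation. For each of 463 miRNAs in 25 libraries the deposited table holds an RPM value; the unit was read from the values (column sums 1010981 to 1018216). Values under 8 RPM were whole multiples of 1 step per library within 0.0051 RPM, which gave the worth of 1 read. No count test was run.

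From these, log2(RPM + 1) was fitted with limma 3.58.1 (trend, R 4.3.3) to all 25 libraries with 1 mean per age, for the 405 miRNAs that reached 1 RPM in 5 or more libraries (58 left out); p-values were Benjamini-Hochberg adjusted per comparison. Arm ratios were fitted alike. The fit was tested on simulated data without a general shift of the miRNAs, so that test does not speak for the scaling. The permutation test used scipy 1.17.1 and Python 3.11.15. Median-ratio and TMM scaling factors were computed from the RPM values. Every family member is named, with the 3 most similar miRNAs and the most abundant of each context list. The members and lists were chosen with earlier results of these data known. Fold changes on this scale understate the change of low miRNAs. Floors and read numbers cover counting error only.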

Additional observations from a re-analysis of the deposited data

Results flagged for a closer look

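Among 30 groups (6 entries at 5 ages), 2 held a library far from the other 4 of its age, by the gap to its neighbour over the range (limit 0.71); chance flags about 1 in 20 groups. In chi-miR-181b-5p at 12 weeks, replicate 4 had 159 RPM, and the next lowest library 194.5 RPM (gap over range 0.767). In chi-miR-181d at 2 weeks, replicate 4 had 7.51 RPM, and the next lowest 12.5 RPM (0.765). Without that library the 2-week rise of chi-miR-181d against 1 day was 0.54 on the log2 scale, still not called (adjusted p = 0.0932, limma).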

How the results depend on the processing

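Scaling mattered most. Median-ratio scaling left 3 members called among the 5 ages, and, against 1 day, 1 at 12 weeks, 1 at 8 weeks and 0 at 4 weeks, and 0 at 4 weeks against 2 weeks (limma; at the 2 counts of 0, 0 and 2 members had an unadjusted p under 0.05). TMM scaling gave 1, 1, 0 and 0 for the same pairs (1 and 3 unadjusted at the counts of 0). For most of the alternative settings in this section, TMM among them, the share of all miRNAs called is not given. The counts of members are thus not read as results about the family. Signs turned for oar-miR-181a: median-ratio scaling gave 0.0487 at 12 weeks, 0.18 at 8 weeks and 0.13 at 2 weeks against 1 day, and 0.0449 at 8 against 2 weeks; TMM gave 0.11 at 8 and 0.11 at 2 weeks against 1 day. Of 32 changes of single members, 15 kept direction and side of the threshold under median-ratio scaling, 17 under TMM, and 291 of 320 when 1 library was left out. A mean of at least 10 RPM left 3 members in the test, so counts were 3 among the ages, 3 at 12 weeks and 2 at 8 weeks against 1 day, and 0 at 4 against 2 weeks. With no filter, 6 members were called lower at 12 weeks and 5 at 8 weeks against 1 day, since chi-miR-181b-3p was then tested. The single call at 4 against 2 weeks was also 0 with no filter, with a pseudocount of 0.1 and with only the 2 ages compared, and 2 without 4-week replicates 1 and 2, an alternative chosen after seeing the data (3 members had an unadjusted p under 0.05 at each of these counts of 0, and 2 with the mean limit).

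Leaving out 1 library gave 5 members in each fit at 12 weeks against 1 day and among the ages, 2 to 4 at 8 weeks and 1 to 3 at 4 weeks against 1 day (lowest in both without 1-day replicate 3), 0 to 2 at 4 weeks against 2 weeks, a miR-181a to miR-181b-5p log2 ratio of 0.29 to 0.38, and a miR-181c arm ratio change of −0.30 to 0.042. The last turned sign (0.0422, 0.00107 and 0.00992 without 1-day replicates 4 and 5 and 12-week replicate 1), as it did with a pseudocount of 0.1 (0.494), and was called with 10 (−0.479). oar-miR-181a at 2 weeks against 1 day ranged from −0.176 to 0.0105, the latter without 2-week replicate 1. The cause of these changes was not tested.

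Whether the replicate numbers pair libraries of different ages is not stated in the labels. Same-numbered libraries of different ages had correlations of deviations from −0.415 to 0.333 (median −0.031, 11 of 50 over 0.1). Such correlations cannot decide it, since paired libraries need not deviate alike. The replicate block left 0 members called at 4 weeks against 2 weeks (3 unadjusted) and changed no other call of a member. For the miR-181a to miR-181b-5p ratio, pairing the replicate numbers in an exact sign-flip test gave 0.323 with p = 0.0625, the smallest that 32 sign flips can give. A depth of 0.0838 to 0.142 RPM per read limits the 3p arms. Count tests on recovered reads (planned) were not run, since whole reads were recovered for low values only.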
